A study of Mus musculus with 6 samples.

Results

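Fatty acid oxidation turns long carbon chains into acetyl-CoA and reduced electron carriers inside mitochondria. The 34 genes described here cover that route from the cell surface to the respiratory chain, and were chosen by name as genes of fatty acid uptake, activation, the carnitine shuttle, and mitochondrial and peroxisomal beta-oxidation. All 34 were found among the 49652 gene rows of the count files, and all 34 were among the 18832 genes with enough counts to be tested. They comprise 2 genes of uptake and binding, 5 of activation, 6 of the carnitine shuttle, 7 acyl-CoA dehydrogenases, 8 of the later steps of the cycle, 3 of electron transfer and 3 of peroxisomes.

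The study asks what loss of OPA1, the GTPase that fuses inner mitochondrial membranes, does to muscle stem cells, the Pax7-expressing resident stem cells of skeletal muscle. The WT group (n = 3 libraries) came from OPA1-Pax7-CreERT2 mice without Cre and the KO group (n = 3 libraries) from mice of that line with Cre, a tamoxifen-dependent recombinase driven by the Pax7 promoter. Mice of both groups were aged 8 to 10 weeks and were given tamoxifen by gavage on 5 days, and cells of uninjured hindlimb muscle were taken 3 days later. Sorting kept cells positive for alpha-7 integrin and VCAM and negative for Sca1, CD45 and CD31. Whether counting used the strand is not given in the sources used here. If it did not, reads in exons shared by 2 genes on opposite strands cannot be assigned to either gene. Cre and Opa1 status differ together, since no Cre-positive control with intact Opa1 is among the libraries. The labels do not say how many animals gave a library, so the p-values below measure the spread between libraries, part of which may be technical.

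A fatty acid enters the cell with the help of CD36, is carried by a fatty acid binding protein, and is joined to coenzyme A by an acyl-CoA synthetase. The carnitine shuttle, whose controlled step is CPT1 on the outer mitochondrial membrane, brings the acyl chain into the matrix, where a dehydrogenase, a hydratase, a second dehydrogenase and a thiolase shorten it in repeated turns. Quiescent muscle stem cells are known for using fatty acid oxidation, and they move towards glycolysis when they are activated.

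Gene counts totalled 41410136 to 56606886 reads a library. Opa1 itself had 68.2, 31.4 and 68.8 CPM (read counts scaled to library size, with TMM as the correction for composition) in WT replicates 1 to 3, and in KO replicates 1 to 3 it had 17.5, 34.4 and 27.1 CPM. WT replicate 2 lay inside the KO range, and is therefore named below by its label, as the library labelled WT replicate 2. For Opa1 the log2 fold change, KO minus WT, was -1.09 (SE 0.37, unadjusted p = 0.0215 by edgeR's quasi-likelihood test), and an exact permutation test gave a two-sided p of 0.2, where 0.1 is the smallest value that 3 against 3 libraries allow. Without the library labelled WT replicate 2 that log2 fold change was -1.38. The 9 muscle stem cell markers summed to 7670 to 11400 CPM in WT and 7110 to 9350 CPM in KO, with Pax7 at 252 to 453 CPM over all 6 libraries. Libraries of 1 genotype also differed in cell state: the proliferation gene Mki67 had 34.3, 1.59 and 38.1 CPM in WT against 78.6, 3.18 and 0.652 CPM in KO, and Fos, an immediate early gene, ranged from 1370 to 8190 CPM. They differed in Y-linked RNA too. The 4 Y-linked genes summed to 0.0707, 478 and 48.3 CPM in WT and to 0.261, 60.3 and 190 CPM in KO. These sums were highest in the library labelled WT replicate 2 and in KO replicate 3.

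No member passed the test between KO and WT. By edgeR's quasi-likelihood test with Benjamini-Hochberg adjustment over all 18832 genes, 0 of the 34 members were called at an adjusted p under 0.05 in either direction, against a background of 0% higher and 0% lower over all genes, and every member had an adjusted p of 0.99998. At an unadjusted p under 0.05, 0 members were higher (background 1.08%) and 1 member, Fabp3, was lower (background 1%). DESeq2's Wald test called 0.106% of its 18785 genes in either direction and 0 members. In 4 members, Fabp3, Cpt1b, Eci2 and Etfdh, every KO library lay below every WT library, which is 11.8% of the members against 3.12% of all genes tested. In 0 members did every KO library lie above every WT library, against 3.43% of all genes. With a library left out this number can only stay or grow, and the share of all genes grows with it. It was 4 without the library labelled WT replicate 2 (7.09% of all genes), 4 without KO replicate 2 (5.59%) and 5 without WT replicate 3 (6.79%). It was 7 without WT replicate 1 (8.61%), 8 without KO replicate 1 (10.4%) and 8 without KO replicate 3 (7.5%).

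The differences were small for most members. The fitted log2 fold change was negative for 22 members (64.7%, against 49% of all genes) and positive for 12 (35.3%, against 51%). Its median was -0.05 over the members, with quartiles of -0.19 and 0.06, and 0.01 over all genes tested. With each library left out the members' median ranged from -0.11 without KO replicate 1 to -0.02 without KO replicate 2, and was -0.05 without the library labelled WT replicate 2. In 26 members the log2 fold change was under 0.3 in size, and in 25 the 95% interval lay within -1 and 1, which leaves room for changes of up to 2-fold. The summed level of all 34 was 2720, 2810 and 2840 CPM in WT replicates 1 to 3 and 2620, 2450 and 2650 CPM in KO replicates 1 to 3. All 3 KO sums were below all 3 WT sums, at 92.2% of the WT mean (90.7% to 94.5% with each library left out). Without Acadm, the member with the widest range in CPM, the groups overlapped, with 2470 to 2590 CPM in WT and 2240 to 2490 CPM in KO. That overlap was absent with scaling by library size alone (2490 to 2570 CPM in WT, 2240 to 2470 CPM in KO), without WT replicate 3 and without KO replicate 1. These are bulk libraries, so fewer cells that express a gene and less RNA of it per cell cannot be told apart.

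**Figure D1:**
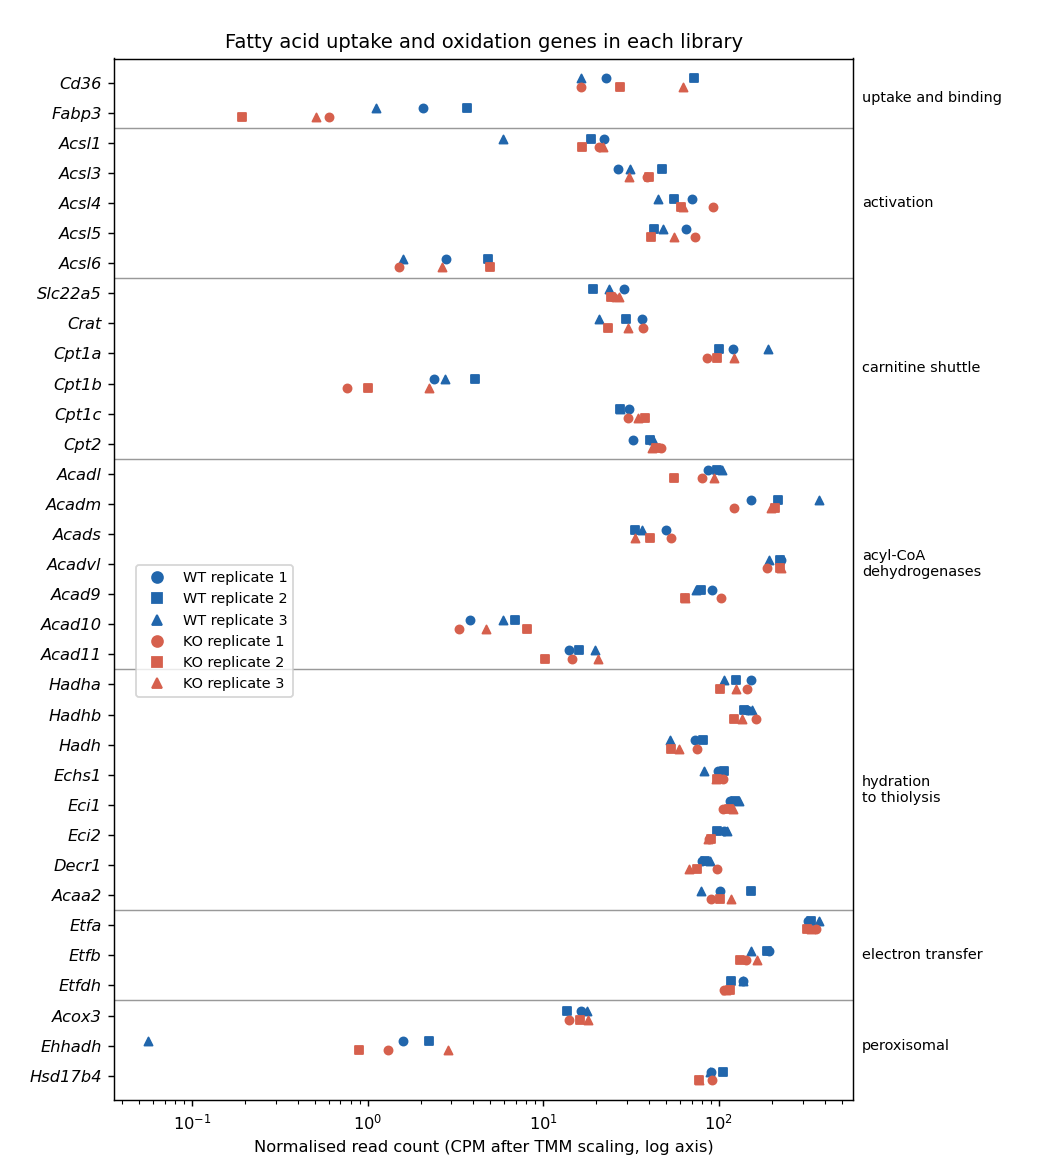
Normalised read count (CPM after TMM scaling, log axis) of each of the 34 genes in the 6 libraries, with WT in blue, KO in red and a symbol per replicate number, grouped by role. Most genes lie within a narrow band in all 6 libraries, and the KO points lie left of the WT points without overlap in Fabp3, Cpt1b, Eci2 and Etfdh.

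**Figure D2:**
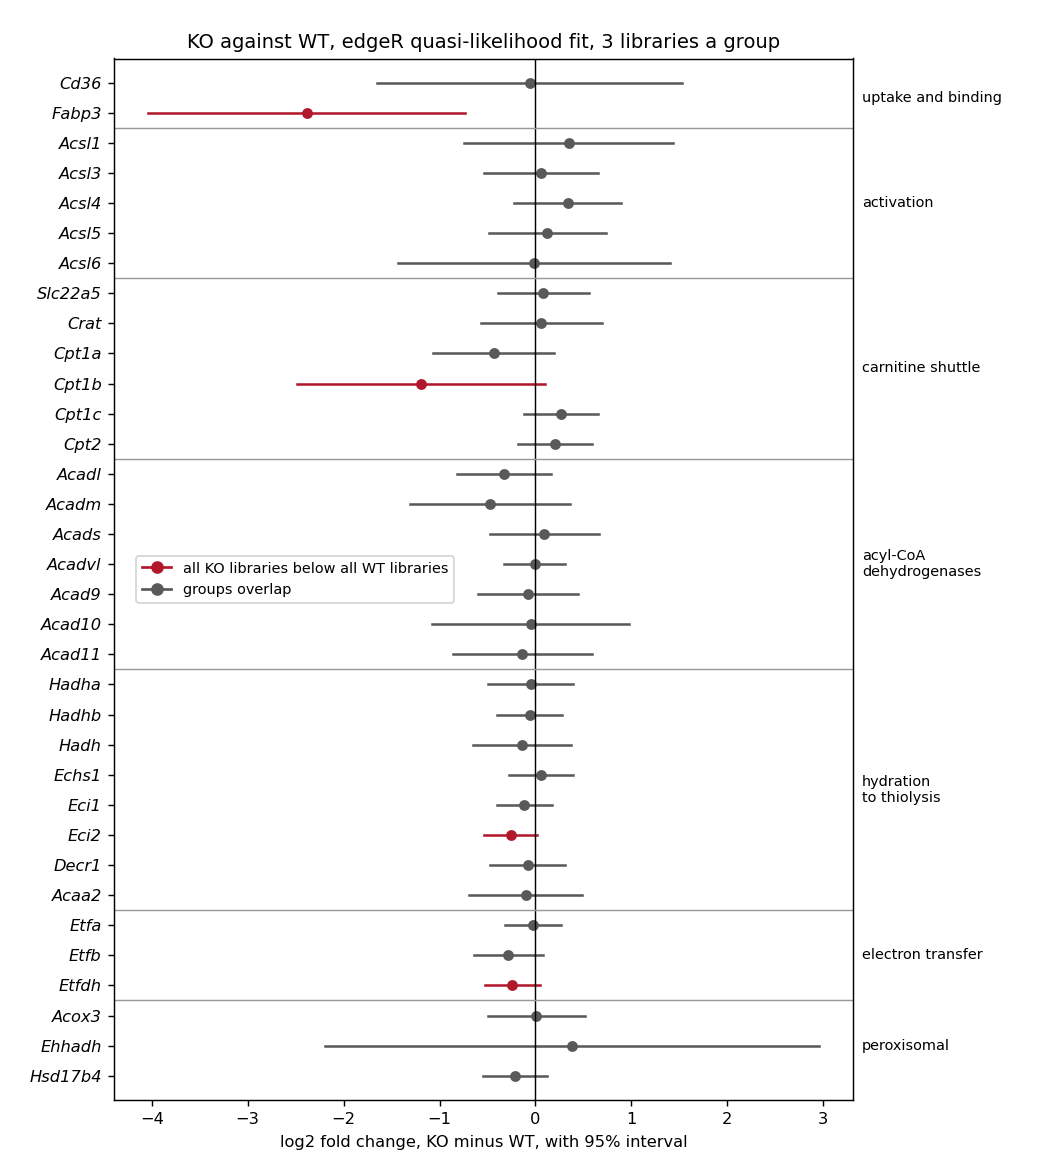
Log2 fold change (KO minus WT, horizontal axis) of each gene with its 95% interval from edgeR's quasi-likelihood fit, 3 libraries a group. Red marks the 4 genes whose KO libraries all lie below the WT libraries, and the interval excludes 0 in Fabp3 alone, before adjustment for multiple tests.

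Promoter sequences were read for the members from RefSeq (GRCm38.p6), which gave 31 windows of 250 bases before a gene start for 28 of the 34. The motifs searched on both strands were the half-site AGGTCA bound by PPAR, ERR and other nuclear receptors, the PPAR element (2 half-sites in the same direction with 1 base between them), the ERR element TCAAGGTCA, the NRF1 core (GCGCA followed by its reverse complement) and the GC box GGGCGG. The PPAR and ERR elements contain the half-site. The half-site was found in 22.6% of the member windows, for 7 genes, against 14.0% of the 32851 windows in the table. The PPAR element was in 0 member windows (0.0335% of all). The ERR element was in a window of Acsl6 and the NRF1 core in that of Etfdh, each 3.23% of member windows against 0.387% and 0.782% of all. All 250 bases of the Etfdh window lie in exons of Etfdh annotated in GENCODE M21. Of the 31 member windows, 16 held no annotated exon base. The GC box was in 71.0% of member windows and in 32.7% of all.

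Of the 7 genes with the half-site, 4 had a window free of annotated exons in GENCODE M21, and these are shown because they span uptake, the shuttle and the first step of oxidation. Each is written from 5′ to 3′ on the strand of the gene, and capitals mark the half-site (AGGTCA or its reverse complement TGACCT) and the GC box (GGGCGG or CCGCCC). The windows are chr5:17835897-17836146 for Cd36 (minus strand, within the annotated gene, whose most distal start lies further upstream), chr7:44974852-44975101 for Cpt1c (minus), chr3:153944644-153944893 for Acadm (minus) and chr11:70015429-70015678 for Acadvl (minus), the latter 3 outside annotated genes.
Cd36: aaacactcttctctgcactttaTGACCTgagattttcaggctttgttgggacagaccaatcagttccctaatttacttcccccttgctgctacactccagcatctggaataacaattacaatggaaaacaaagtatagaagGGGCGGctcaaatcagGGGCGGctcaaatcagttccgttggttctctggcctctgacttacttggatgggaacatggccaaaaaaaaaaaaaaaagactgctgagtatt
Cpt1c: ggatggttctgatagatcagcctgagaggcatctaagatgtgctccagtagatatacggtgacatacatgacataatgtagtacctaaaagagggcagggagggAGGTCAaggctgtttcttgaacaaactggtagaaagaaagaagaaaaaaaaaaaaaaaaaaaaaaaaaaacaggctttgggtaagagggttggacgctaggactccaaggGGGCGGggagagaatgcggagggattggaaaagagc
Acadm: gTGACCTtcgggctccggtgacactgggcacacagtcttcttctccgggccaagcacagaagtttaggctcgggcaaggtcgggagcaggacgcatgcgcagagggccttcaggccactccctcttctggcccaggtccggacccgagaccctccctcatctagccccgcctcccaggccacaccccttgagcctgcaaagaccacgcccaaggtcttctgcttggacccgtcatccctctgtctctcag
Acadvl: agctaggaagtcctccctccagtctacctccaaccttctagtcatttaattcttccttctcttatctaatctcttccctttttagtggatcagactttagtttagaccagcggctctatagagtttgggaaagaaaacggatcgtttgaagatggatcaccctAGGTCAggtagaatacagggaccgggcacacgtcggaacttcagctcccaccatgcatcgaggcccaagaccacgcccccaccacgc

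Cd36 and Cpt1c hold a GC box beside the half-site, Cd36 more than 1 of them, while Acadm and Acadvl hold the half-site alone among the motifs searched. These 4 genes shared no direction, with log2 fold changes of -0.06, 0.27, -0.48 and -0.01 in KO against WT, each with an adjusted p of 0.99998 by edgeR's quasi-likelihood test. Hadha and Hadhb lie head to head on chromosome 5 with 272 bases between their RefSeq starts, so 228 bases of their windows are shared. A match describes letters in a window and no binding was measured.

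The largest fitted difference of the 34 was in a binding gene. Fabp3 encodes the heart-type fatty acid binding protein of the cytosol (chromosome 4, 130308595 to 130315463, plus strand, GRCm38). It was at 2.07, 3.70 and 1.12 CPM in WT replicates 1 to 3 and at 0.602, 0.193 and 0.511 CPM in KO replicates 1 to 3. The groups did not overlap, and the counts behind these values were low, at 117, 177 and 60 reads in WT and 30, 8 and 29 reads in KO. Its log2 fold change was -2.39 (SE 0.70, 95% interval -4.04 to -0.73, unadjusted p = 0.0113, adjusted p = 0.99998 by edgeR's quasi-likelihood test), and it lay between -2.71 and -1.86 when each library was left out in turn, with -1.86 without the library labelled WT replicate 2. In DESeq2 its adjusted p was 0.629. Exons of 2 genes on the other strand, Zcchc17 and Gm10570, share 9.8% and 9.7% of its exon bases.

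Cd36 encodes the fatty acid receptor of the plasma membrane. It was at 22.7, 71.8 and 16.4 CPM in WT and at 16.5, 27.3 and 62.6 CPM in KO. The highest values were in the library labelled WT replicate 2 and in KO replicate 3, so the groups overlapped, and the log2 fold change was -0.06 (SE 0.67), moving to 0.86 without the library labelled WT replicate 2 and to -0.76 without KO replicate 3. The same pair of libraries was highest for Fabp4, the fatty acid binding protein of adipocytes and endothelial cells, at 38.3, 82.9 and 23.2 CPM in WT and at 21.8, 35.8 and 72.4 CPM in KO. Acta1, the actin of muscle fibres, followed that order as well, at 129, 341 and 77.3 CPM in WT and at 94.7, 125 and 234 CPM in KO.

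The sums of mature fibre and of endothelial markers were highest in that pair of libraries too, the endothelial sum with Fabp4 counted in. The 10 mature fibre markers summed to 257, 567 and 156 CPM in WT and to 174, 234 and 419 CPM in KO, with none at 0. All 10 had a negative log2 fold change, with a median of -0.28. Their smallest unadjusted p was 0.332 by edgeR's quasi-likelihood test. The 9 endothelial markers, Fabp4 among them, summed to 213, 255 and 130 CPM in WT and to 122, 160 and 244 CPM in KO, with none at 0. Fabp4 gave 38.3, 82.9 and 23.2 CPM of the WT sums and 21.8, 35.8 and 72.4 CPM of the KO sums. The order of the endothelial sum is therefore not independent of Fabp4. Each of the 7 adipocyte markers was at 0 in at least 1 library, and their sum was 0.0374 to 3.28 CPM in WT and 0.381 to 1.06 CPM in KO. The 8 fibro-adipogenic markers, with Dpp4 at 0 in at least 1 library, did not follow that order, with sums of 859, 1040 and 1340 CPM in WT and of 706, 841 and 906 CPM in KO. Nor did the 7 smooth muscle and pericyte markers, with sums of 1290, 786 and 749 CPM in WT and of 1020, 752 and 729 CPM in KO. The 8 leukocyte markers, with Ptprc, Csf1r, Adgre1 and Cd3e at 0 in at least 1 library, summed to 7.92, 17.3 and 8.81 CPM in WT and to 6.89, 16.7 and 19.2 CPM in KO. These leukocyte sums were also highest in the library labelled WT replicate 2 and in KO replicate 3, with KO replicate 2 close behind. The part of these cells in the values of Cd36, Fabp3 and Cpt1b was not tested.

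**Figure D3:**
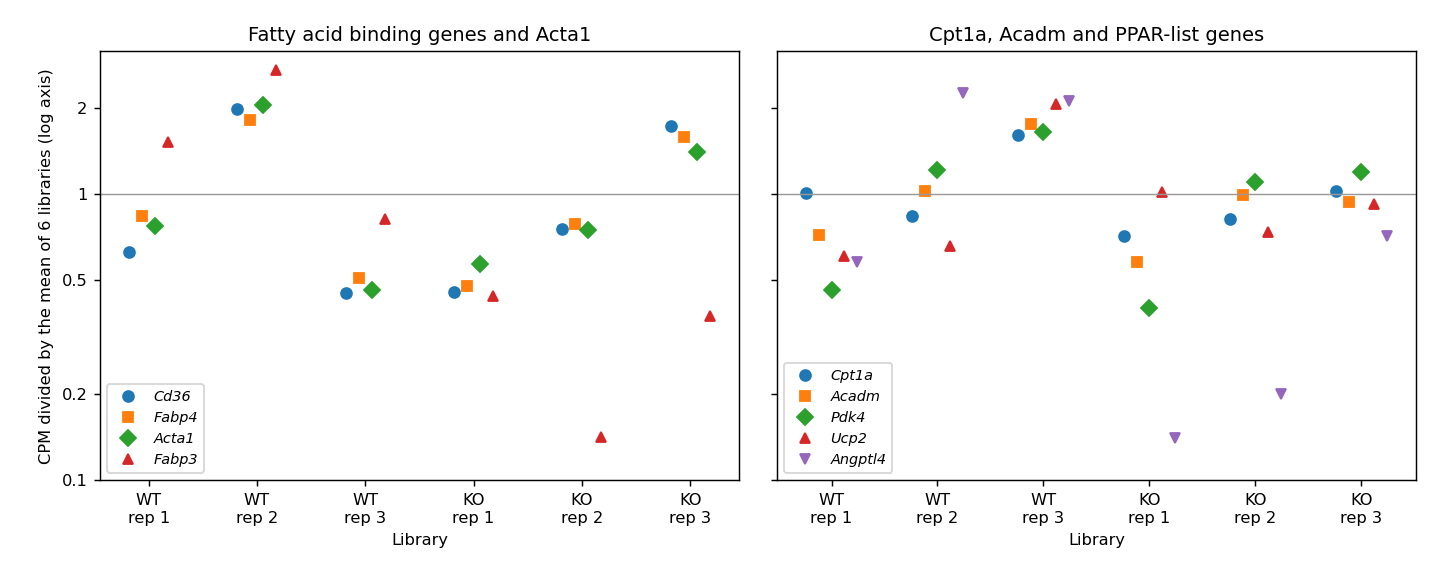
CPM of single genes divided by their mean over the 6 libraries (log axis), for Cd36, Fabp4, Acta1 and Fabp3 on the left and for Cpt1a, Acadm, Pdk4, Ucp2 and Angptl4 on the right. Cd36, Fabp4 and Acta1 are high in the library labelled WT replicate 2 and in KO replicate 3. Fabp3 is below 1 in every KO library and in WT replicate 3, and Cpt1a, Acadm, Pdk4 and Ucp2 are highest in WT replicate 3.

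The 5 long-chain acyl-CoA synthetases, which activate fatty acids at different membranes, had a positive log2 fold change in 4 cases and overlapped between the groups in all 5. Acsl4, which favours arachidonic acid, was at 69.9, 55.9 and 45.0 CPM in WT and at 92.3, 60.5 and 62.9 CPM in KO, a log2 fold change of 0.34 (unadjusted p = 0.197 by edgeR's quasi-likelihood test). Acsl1, the main form in heart and fat, was at 22.2, 18.6 and 5.89 CPM in WT and at 20.8, 16.6 and 22.0 CPM in KO. The single low library of Acsl1 was WT replicate 3, and without it the log2 fold change moved from 0.35 to -0.04. Acsl5 and Acsl3 had log2 fold changes of 0.13 and 0.06, and Acsl6, at 1.51 to 4.97 CPM, of -0.01.

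Levels of different genes were compared as CPM per kb of mRNA. Acsl5 (mean over the 6 libraries 12.8 CPM per kb) and Acsl4 (12.2) were the most abundant synthetases and their order changed between libraries, with Acsl5 above Acsl4 in 3 of 6. Acsl3 (9.07) was below Acsl4 in 5 of 6 libraries. Acsl1 (4.54) and Acsl6 (1.18) followed.

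In the carnitine shuttle, the 3 forms of CPT1 differed in level, and their log2 fold changes had both signs with none past the test. Cpt1a, the form of liver and many other tissues (chromosome 19, 3322334 to 3385733, plus strand), was at 120, 99.9 and 191 CPM in WT and at 85.1, 97.1 and 122 CPM in KO. The groups overlapped, and WT replicate 3 was the highest library. Its log2 fold change was -0.44 (SE 0.27, unadjusted p = 0.144 by edgeR's quasi-likelihood test), and -0.12 without WT replicate 3.

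Cpt1b is the form of muscle fibres and heart (chromosome 15, 89416405 to 89425863, minus strand). It was at 2.39, 4.11 and 2.75 CPM in WT and at 0.763, 1.01 and 2.25 CPM in KO, from 135, 197 and 147 reads and 38, 42 and 128 reads. Every KO library was below every WT library, with KO replicate 3 closest to the WT range. Its log2 fold change was -1.19 (SE 0.55, 95% interval -2.49 to 0.10, unadjusted p = 0.0657 by edgeR's quasi-likelihood test), from -1.79 to -0.91 with each library left out. A gene model without a count row, Gm44502, shares 81.4% of the Cpt1b exon bases and is not analysed here.

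Cpt1c is a brain-enriched form of the endoplasmic reticulum with little part in oxidation (chromosome 7, 44959372 to 44974851, minus strand). It was at 30.8, 27.4 and 27.4 CPM in WT and at 30.2, 38.1 and 34.6 CPM in KO. The lowest KO value lay just under the highest WT value, and the log2 fold change was 0.27 (SE 0.17, unadjusted p = 0.151 by edgeR's quasi-likelihood test). Cpt2, the inner membrane enzyme that returns the acyl group to coenzyme A, was at 32.4, 40.8 and 42.0 CPM in WT and at 46.6, 44.1 and 41.4 CPM in KO, a log2 fold change of 0.20. Slc22a5, the carnitine importer, and Crat, the carnitine acetyltransferase of the matrix, ranged from 19.3 to 29.0 and from 20.8 to 37.0 CPM, with log2 fold changes of 0.08 and 0.06.

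Per kb of mRNA, the order was the same in each of the 6 libraries: Cpt1a (27.6 ± 8.79 CPM per kb, SD, n = 6), Cpt2 (17.4 ± 2.04), Cpt1c (11.3 ± 1.52) and Cpt1b (0.764 ± 0.422). Cpt1a exceeded Cpt1b by 16.3 to 74.8 times and Cpt1c by 1.65 to 4.52 times. In WT the ratio of Cpt1a to Cpt1c was 2.52, 2.36 and 4.52, and in KO it was 1.82, 1.65 and 2.27, without overlap. This ratio was formed after the values were seen and was not tested.

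**Figure D4:**
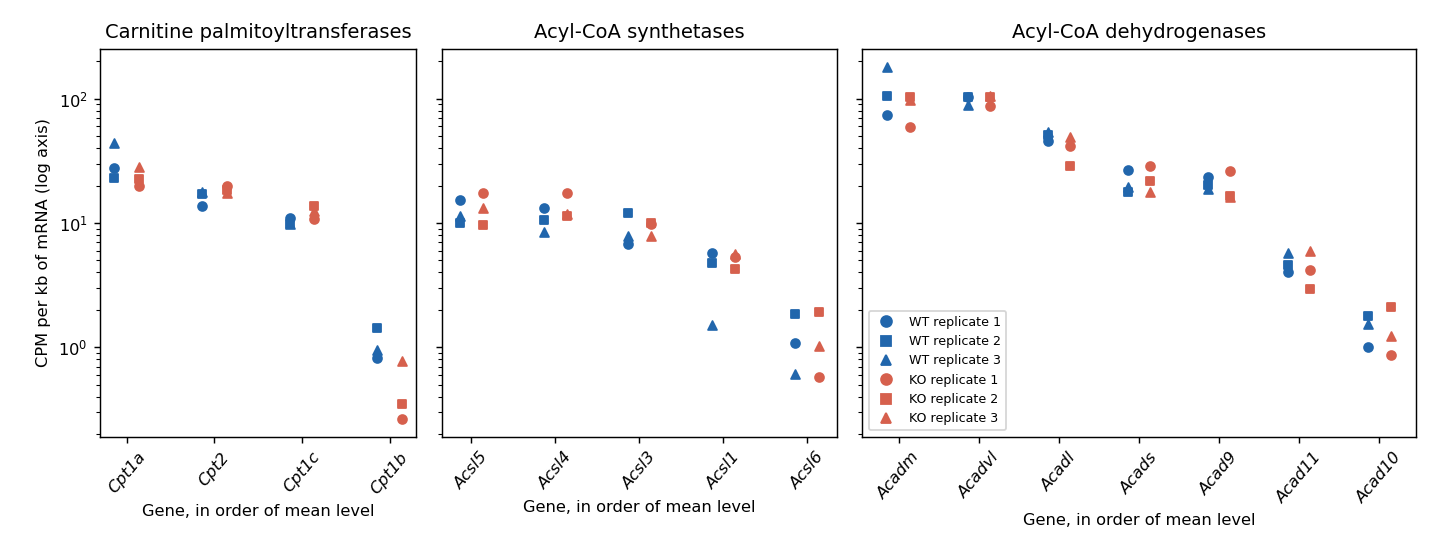
CPM per kb of mRNA (log axis) of the carnitine palmitoyltransferases, long-chain acyl-CoA synthetases and acyl-CoA dehydrogenases in each library, genes in order of their mean, WT in blue and KO in red. Cpt1a stands above Cpt2, Cpt1c and Cpt1b in every library, and Acadm and Acadvl head the dehydrogenases.

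The acyl-CoA dehydrogenases take the first step of each turn of the cycle and differ in the chain length they accept. Of the 7 members, 6 had a negative log2 fold change, with a median of -0.08, and the groups overlapped in all 7. Acadm, the medium-chain enzyme, was at 152, 217 and 370 CPM in WT and at 122, 210 and 199 CPM in KO. WT replicate 3 stood above the other 5 libraries, and the log2 fold change of -0.48 (SE 0.35, unadjusted p = 0.219 by edgeR's quasi-likelihood test) moved to -0.06 without it. Acadl, the long-chain enzyme, was at 87.0, 97.1 and 104 CPM in WT and at 80.1, 55.7 and 94.3 CPM in KO, a log2 fold change of -0.33 (unadjusted p = 0.162 by edgeR's quasi-likelihood test) with KO replicate 2 lowest.

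Acadvl, the very-long-chain enzyme of the inner membrane, stood at 226, 223 and 194 CPM in WT and at 188, 224 and 227 CPM in KO. Its log2 fold change was -0.01 (95% interval -0.33 to 0.31), and 42.9% of its exon bases overlap those of Dvl2 on the other strand. Acads, the short-chain enzyme, ranged from 33.3 to 53.4 CPM (log2 fold change 0.09) and Acad9, which also serves the assembly of complex I, from 64.2 to 103 CPM (-0.08). Acad10 (3.33 to 8.03 CPM) and Acad11 (10.2 to 20.5 CPM), relatives outside the classic chain-length series, had log2 fold changes of -0.05 and -0.14.

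By level per kb, Acadm (103 ± 41.8 CPM per kb, SD, n = 6) and Acadvl (98.6) led, and Acadm was the higher in 2 of 6 libraries. The overlap of Acadvl with Dvl2 may affect its count, so its order against Acadm is uncertain. Acadl (45.1) came next, then Acads (22.0) and Acad9 (20.2), with Acads above Acad9 in 5 of 6 libraries. Acad11 (4.6) and Acad10 (1.42) were the lowest.

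The 8 genes of the steps from hydration to thiolysis were close between the groups, with 7 negative log2 fold changes and a median of -0.09. Eci2 encodes an enoyl-CoA isomerase that lets unsaturated chains enter the cycle (chromosome 13, 34977748 to 35027096, minus strand). It was at 107, 98.0 and 111 CPM in WT and at 88.4, 89.8 and 86.3 CPM in KO. The groups did not overlap and the KO libraries lay close together, at 88.2 ± 1.76 CPM against 106 ± 6.88 CPM in WT (SD, n = 3 each). A log2 fold change of -0.26 (SE 0.12, 95% interval -0.54 to 0.02, unadjusted p = 0.0624 by edgeR's quasi-likelihood test) was fitted, and -0.31 to -0.22 with each library left out.

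Eci1, the other mitochondrial isomerase, was at 115, 123 and 130 CPM in WT and at 105, 114 and 120 CPM in KO, with a log2 fold change of -0.12 and groups that overlapped. Hadha and Hadhb, the alpha and beta subunits of the trifunctional protein that handles long chains, had log2 fold changes of -0.05 (95% interval -0.49 to 0.40) and -0.06 (-0.40 to 0.27). Hadha was at 152, 126 and 107 CPM in WT and at 144, 102 and 126 CPM in KO, and Hadhb at 144, 139 and 155 CPM and at 162, 122 and 136 CPM. Per kb, Hadhb exceeded Hadha by 1.87 to 2.83 times, most in WT replicate 3, where Hadhb was the highest of the WT libraries and Hadha the lowest.

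Among the short-chain enzymes, Echs1, the hydratase, ranged from 81.9 to 107 CPM and had a log2 fold change of 0.06. Hadh, the hydroxyacyl-CoA dehydrogenase, was at 72.9, 81.0 and 52.5 CPM in WT and at 75.0, 53.1 and 59.0 CPM in KO, with a log2 fold change of -0.14. Decr1, the dienoyl-CoA reductase that works with the isomerases, was at 67.7 to 97.2 CPM (-0.08), and Acaa2, the thiolase of the matrix, at 79.6 to 152 CPM (-0.10), with the highest value in the library labelled WT replicate 2. Eci1 was the most abundant of the 8 per kb (103 CPM per kb), followed by Acaa2 (70.8), Hadhb (69.9) and Echs1 (63.0), whose order changed between libraries, and then Eci2 (55.5), Hadh (36.7), Hadha (31.4) and Decr1 (27.8).

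The electron transfer flavoprotein takes electrons from the acyl-CoA dehydrogenases to the ubiquinone pool through ETFDH, and all 3 of its genes had a negative log2 fold change. Etfdh, the ubiquinone oxidoreductase of the inner membrane (chromosome 3, 79603788 to 79629500, minus strand), was at 137, 118 and 137 CPM in WT and at 107, 115 and 110 CPM in KO. All KO libraries were below all WT libraries, and the nearest pair was the library labelled WT replicate 2 and KO replicate 2. Its log2 fold change was -0.24 (SE 0.12, 95% interval -0.53 to 0.05, unadjusted p = 0.0917 by edgeR's quasi-likelihood test), and -0.31 to -0.20 with each library left out.

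Etfb, the beta subunit, was at 194, 188 and 152 CPM in WT and at 143, 132 and 164 CPM in KO. WT replicate 3 lay inside the KO range, and the log2 fold change was -0.28 (SE 0.15, unadjusted p = 0.103 by edgeR's quasi-likelihood test), or -0.38 with an unadjusted p of 0.0432 by that test without WT replicate 3. The gene model Gm45233, which has no count row and is not analysed here, shares 53% of its exon bases. Etfa, the alpha subunit, was at 320, 336 and 373 CPM in WT and at 357, 316 and 336 CPM in KO, with a log2 fold change of -0.03 (95% interval -0.32 to 0.27). Etfa was the most abundant member per kb (244 CPM per kb, against 182 for Etfb and 50.8 for Etfdh) and made up 11.8% to 13.6% of the summed CPM of the 34 genes.

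Across the dehydrogenases, the later steps and electron transfer, 16 of 18 genes had a negative log2 fold change, against 49% of all genes tested. Across activation and the carnitine shuttle, 8 of 11 had a positive one, against 51% of all genes tested. With each library left out in turn these counts ranged from 12 to 15 and from 5 to 9, so the first count was lower in each of those fits, and the lowest of the second range came without WT replicate 3. Some of the negative values lay close to 0, as in Acadvl (-0.01) and Etfa (-0.03). Uptake, with 2 negative values, and the peroxisomal genes, with 1 negative and 2 positive, lie outside both counts. Neither count was tested.

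The 3 peroxisomal genes did not separate the groups. Hsd17b4, the bifunctional enzyme of straight and branched chains, was at 90.1, 105 and 89.3 CPM in WT and at 91.6, 77.1 and 77.1 CPM in KO, with a log2 fold change of -0.21 (unadjusted p = 0.175 by edgeR's quasi-likelihood test). Acox3, an oxidase of branched chains, ranged from 13.7 to 17.9 CPM (log2 fold change 0.01). Ehhadh, the other bifunctional enzyme, was at 1.59, 2.23 and 0.0561 CPM in WT and at 1.31, 0.892 and 2.85 CPM in KO. WT replicate 3 had only 3 reads of Ehhadh, while the other 5 libraries had 37 to 162, and the log2 fold change of 0.38 had an SE of 1.09. Per kb the order was Hsd17b4 (32.9 CPM per kb), Acox3 (4.04) and Ehhadh (0.499).

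Of 53 other genes of fatty acid handling and oxidation, 47 were tested and 0 had an unadjusted p under 0.05 by edgeR's quasi-likelihood test. The log2 fold change was positive in 23 and negative in 24, with a median of -0.01. Slc27a1, a fatty acid transport protein, was at 123, 137 and 84.2 CPM in WT and at 62.6, 76.0 and 97.0 CPM in KO (log2 fold change -0.55, unadjusted p = 0.0539 by edgeR's quasi-likelihood test). Dbi, the acyl-CoA binding protein, was at 142, 110 and 123 CPM in WT and at 117, 73.0 and 76.0 CPM in KO (-0.50, unadjusted p = 0.0534 by edgeR's quasi-likelihood test). In both genes the groups overlapped. Abcd4, a transporter of the lysosomal membrane, had a log2 fold change of 0.53, and Acat1, a thiolase and the most abundant gene of the list, of -0.09.

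Among 31 tested genes of PPAR and ERR regulation, whose nuclear receptors drive the oxidation genes, 14 had a positive and 17 a negative log2 fold change, with a median of -0.05. Ppara, the receptor that senses fatty acids, was at 2.24, 3.92 and 1.80 CPM in WT and at 6.73, 4.24 and 5.23 CPM in KO. All 3 KO libraries were higher, with a log2 fold change of 1.02 (SE 0.43, unadjusted p = 0.047 by edgeR's quasi-likelihood test). Angptl4, a secreted lipoprotein lipase inhibitor and PPAR target, was at 31.4, 123 and 115 CPM in WT and at 7.65, 10.9 and 38.8 CPM in KO. Its log2 fold change was -2.23 (SE 0.75, unadjusted p = 0.0205 by edgeR's quasi-likelihood test), and WT replicate 1 lay inside the KO range. Klf15 and the corepressor Ncor1 had log2 fold changes of 0.62 and -0.11.

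Some genes of that list had their highest value in WT replicate 3, as Cpt1a and Acadm did. That library was the highest for 20.6% of the members and for 18.2% of all genes tested. It was also the lowest for 26.5% of the members and for 19.6% of all genes tested. Pdk4, the kinase that restrains pyruvate oxidation, was at 41.8, 110 and 149 CPM in WT and at 36.2, 99.7 and 108 CPM in KO. Ucp2, an uncoupling protein family carrier, was at 88.3, 96.3 and 301 CPM in WT and at 148, 107 and 134 CPM in KO. Both were highest in WT replicate 3, and both were picked after their values were seen. KO replicate 1 was the lowest library for Cpt1a, Acadm and Pdk4, but not for Ucp2.

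Genes of neighbouring lipid routes gave few differences. Of 15 tested genes of lipolysis and lipid droplets, 7 had a positive and 8 a negative log2 fold change (median -0.05), and G0s2, an inhibitor of triglyceride lipase, Mgll, the monoglyceride lipase, Lipa, the lysosomal acid lipase, and Lpl, the lipoprotein lipase, had values of 0.55, -0.90, 0.25 and 0.01. Of 15 genes of fatty acid synthesis and desaturation, 12 were positive and 3 negative, with a median of 0.17. Scd2, a desaturase that makes monounsaturated fatty acids, was at 98.4, 99.2 and 40.9 CPM in WT and at 190, 151 and 104 CPM in KO, all KO libraries being higher (log2 fold change 0.90, unadjusted p = 0.0475 by edgeR's quasi-likelihood test). Thrsp and Srebf1, regulators of lipogenesis, had log2 fold changes of 0.32 and 0.29. The 6 ketone body genes had 4 positive and 2 negative values, with Bdh1, a hydroxybutyrate dehydrogenase, under 1 CPM in every library. None of these genes passed the test over all 18832 genes.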

How the data were processed

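RNA of 6 libraries of sorted muscle stem cells was measured by bulk RNA-seq, and 1 file of raw, whole-number gene counts was deposited for each. The submitters' processing notes list HTSeq 0.6.1p2 and STAR 2.6.0c with GRCm38, the trimming tools cutadapt 2.5 and Trim Galore 0.5.0, and DESeq2 and edgeR. The annotation release is not given in the sources used here. Reads without a feature (11.15% to 17.02% of all), ambiguous reads (1.21% to 1.42%) and multiply aligned reads (14.82% to 24.57%) were left out. Symbols, positions and mRNA lengths (the longest principal transcript) came from GENCODE M21, which matched 49399 of 49652 gene IDs.

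KO was compared with WT in R 4.3.3 by the quasi-likelihood test of edgeR 4.0.16 (robust, TMM scaling, package filter on low counts, no covariate, prior count 0.125), with Benjamini-Hochberg adjustment over all genes tested and a threshold of 0.05. A standard error is the size of the log2 fold change over the square root of F. Other fits used DESeq2 1.42.0, other scaling, no filter, a replicate block, covariates, or 1 library fewer. Tables, promoter windows and figures were made with pandas 2.3.3 and matplotlib 3.10.9 in Python 3.11.15. On simulated counts for KO against WT over 18832 genes, with dispersions as estimated per gene, the test called 11% of genes changed 2-fold and 56% of those changed 4-fold, with 2 false calls. The changed genes were drawn only from those above a minimum expected count, so these rates do not hold for every gene tested.

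The 34 genes, the other lists, the markers and the tests were chosen with earlier results of these data known. All 34 members are named, with the 3 genes of smallest p and the most abundant gene of each neighbouring list and the checks Opa1, Pax7, Mki67 and Fos. A gene that this rule names is not reported here. Of the marker lists, Fabp4 and Acta1 are given singly because they shared the library pattern of Cd36, and were picked after seeing their values.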

Additional observations from a re-analysis of the deposited data

How the results depend on the processing

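In the other fits, those with 1 library left out included, 0 members passed the threshold, and DESeq2's Wald test called 20 genes where edgeR's quasi-likelihood test called 0. Genes at an unadjusted p under 0.05 numbered 393 in the fit as reported, 864 without the filter on low counts, 591 with the Y-linked genes as a covariate, and 324 to 818 with each library left out in turn. The replicate numbers did not pair the libraries (correlations of same-numbered deviations 0.195, 0.082 and -0.072), and with a replicate block 0 genes were called, 515 genes and 1 member had an unadjusted p under 0.05, and the members' median was -0.05. Members at an unadjusted p under 0.05 numbered 2 with the cell cycle genes as a covariate (Fabp3 and Cpt1b) and 3 with the Y-linked genes (Fabp3, Cpt1b and Eci2), and 1 to 2 with each library left out, Etfb joining without WT replicate 3 and Cpt1b without KO replicate 3. With each library left out, members with all KO libraries lower numbered 4 to 8 while the share of all genes was 5.59% to 10.4%, against 3.12% with all libraries, and this count cannot fall when a library is dropped. Those with all KO libraries higher numbered 0 to 3, while the share of all genes was 6.18% to 10.2%. In the same fits positive members among activation and the shuttle numbered 5 to 9, and the members' median was -0.11 to -0.02.

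The sign held in every fit for 14 members, Fabp3, Cpt1a, Cpt1b, Eci2, Etfb and Etfdh among them. Cd36 turned to 0.02 with the cell cycle covariate and Acox3 to -0.02 without the filter. With each library left out, the log2 fold change of 20 members took both signs: Cd36 -0.76 to 0.86, Acsl1 -0.04 to 0.69, Acsl3 -0.10 to 0.34, Acsl5 -0.11 to 0.32, Acsl6 -0.58 to 0.47, Slc22a5 -0.06 to 0.24, Crat -0.13 to 0.26, Acads -0.11 to 0.28, Acadvl -0.08 to 0.07, Acad9 -0.34 to 0.04. The later ones were Acad10 -0.48 to 0.20, Acad11 -0.42 to 0.07, Hadha -0.17 to 0.09, Hadhb -0.18 to 0.01, Echs1 -0.05 to 0.14, Decr1 -0.25 to 0.02, Acaa2 -0.29 to 0.19, Etfa -0.07 to 0.04, Acox3 -0.09 to 0.10, Ehhadh -0.23 to 1.03. The causes were not tested. Each fit with 1 library left out rests on 5 libraries. At 8 to 177 reads Fabp3 carries more counting error than the 23 members with at least 1000 reads in every library, for which the spread between libraries sets the precision.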
